A study of Homo sapiens with 6 samples.

Results

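Antisense long noncoding RNAs are transcribed from the strand opposite to another gene, usually a protein-coding one, and carry that gene's symbol followed by -AS and a number. The set described here held every gene whose annotated array symbol ended in -AS and a number, with the brightest probe set (here called a row) standing for a gene that had several. It came to 480 antisense RNAs out of 14884 named genes in the table, on 511 rows of which 24 genes had more than 1. The gene before -AS is called the sense partner, and 303 partners had a row of their own. They made 315 pairs because some of them gave their name to several antisense RNAs. Among all 462 partner symbols, with or without a row, 16 did so. In the human gene table from RefSeq, 474 of the 480 were annotated as long noncoding RNAs.

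The RNA came from Flp-In T-REx HEK293 cells, a human embryonic kidney line in which a transgene is placed at a prepared genomic site under a promoter that tetracycline can switch. The TDNC1 group of 3 arrays held cells that stably expressed TDNC1, and the control group of 3 arrays held cells that expressed a random RNA; both had been kept under blasticidin and, after transfection, hygromycin. Stable colonies were pooled, so neither group is a single clone, and the sources used here do not say whether the inducer was added or what RNA TDNC1 is. Arrays were labelled as biological replicates 1 to 3, with no word on separate transfections. A p-value here weighs the difference between the groups against the spread of the arrays within a group, estimated partly over all rows. That spread may be only technical. The array was the Affymetrix Human Gene 2.0 ST, read as normalized log2 expression, so that a difference of 1 is a doubling. The question was which transcripts differ between cells with TDNC1 and cells with the control RNA.

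Antisense RNAs can act on the gene they face in several ways: a transcript that starts beside the partner's start can share its promoter, a transcript that runs through the partner can interfere with its transcription or pair with its RNA, and some recruit chromatin-modifying complexes such as Polycomb. Many are short-lived and stay in the nucleus, where the RNA exosome degrades them, and their steady level is often low. Some work away from their own locus, so that a pair need not move together.

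The arrays themselves gave similar distributions, with medians over all 53617 rows between 5.16 and 5.22. Of 8 HEK293 markers, 5 had a named row (PAX2, LHX1, VIM, KRT8 and KRT18), and all 5 lay above the median row. Among markers of other cell types, the fibroblast genes DCN and LUM, the blood gene CD14 and the endothelial genes PECAM1 and VWF lay below it, 1 of 3 hepatocyte genes lay above it, and the epithelial genes EPCAM and KRT19 lay in the upper quartile. The mean of each of these lists overlapped between the groups. TDNC1 replicate 3 was less like TDNC1 replicates 1 and 2 than those were like each other: across the antisense RNAs the median absolute difference was 0.116 between TDNC1 replicates 1 and 2, 0.157 between either of them and replicate 3, and 0.155, 0.147 and 0.124 between TDNC1 replicate 3 and control replicates 1, 2 and 3, while control replicates 1 and 3 differed by 0.150. Results that rest on it are given with and without it.

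Starts listed by RefSeq on GRCh38.p14 placed 325 of the 480 relative to their partner, and all 325 lay on the opposite strand. In 142 the antisense start lay inside the partner, in 65 it overlapped the partner's start region, within 1000 bases downstream, in 43 it lay head to head within 1000 bases upstream, in 16 it lay farther upstream and in 59 beyond the partner's end. A single start per gene was used, although genes can have several.

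Promoter sequences show how closely some of these pairs are packed. The RefSeq promoter table, which covers 250 bases before a start to 50 after it, held 369 of the 480. Printed 5′ to 3′ on each gene's own strand are 3 head-to-head antisense RNAs whose rows are described below, with the bases that also belong to the partner's own promoter window in capitals. ZNF566-AS1 (chr19:36489377-36489676, plus strand) shared 165 of its 300 bases with the window of ZNF566, CCNT2-AS1 (chr2:134918557-134918856, minus strand) shared 285 with that of CCNT2, and RBM26-AS1 (chr13:79406059-79406358, plus strand) shared 153 with that of RBM26. 
ZNF566-AS1: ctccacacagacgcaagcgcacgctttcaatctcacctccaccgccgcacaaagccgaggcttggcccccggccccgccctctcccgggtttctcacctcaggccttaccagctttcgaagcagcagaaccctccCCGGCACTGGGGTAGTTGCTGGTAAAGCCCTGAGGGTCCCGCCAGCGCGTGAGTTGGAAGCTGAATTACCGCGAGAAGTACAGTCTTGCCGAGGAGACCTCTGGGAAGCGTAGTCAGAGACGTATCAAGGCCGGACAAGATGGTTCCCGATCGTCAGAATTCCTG
CCNT2-AS1: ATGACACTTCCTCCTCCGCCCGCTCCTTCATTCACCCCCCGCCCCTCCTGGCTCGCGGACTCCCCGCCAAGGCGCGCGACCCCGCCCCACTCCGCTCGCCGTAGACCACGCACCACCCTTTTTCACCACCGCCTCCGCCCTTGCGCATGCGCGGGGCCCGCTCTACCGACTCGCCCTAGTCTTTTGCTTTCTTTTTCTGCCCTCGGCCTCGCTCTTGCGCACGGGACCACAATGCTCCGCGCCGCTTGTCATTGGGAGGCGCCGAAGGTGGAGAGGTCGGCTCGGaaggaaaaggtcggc
RBM26-AS1: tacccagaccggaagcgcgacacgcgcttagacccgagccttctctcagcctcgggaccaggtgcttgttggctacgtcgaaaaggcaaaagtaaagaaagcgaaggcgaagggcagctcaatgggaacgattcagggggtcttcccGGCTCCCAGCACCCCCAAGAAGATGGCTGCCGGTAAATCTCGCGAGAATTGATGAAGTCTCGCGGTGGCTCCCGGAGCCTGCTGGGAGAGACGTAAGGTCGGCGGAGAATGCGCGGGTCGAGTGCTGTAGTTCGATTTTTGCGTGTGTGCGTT
In ZNF566-AS1 the antisense start lay 66 bases from the partner's, in CCNT2-AS1 216 and in RBM26-AS1 54.

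The ST7 locus is printed as one whose windows do not overlap. Its pair gave opposite values, but so did RBM26-AS1 and RBM26 above (log2 differences, TDNC1 minus control, of 0.36 and -0.09). The start of ST7-AS1 (chr7:116954285-116954584, minus strand) lay 833 bases inside ST7 (chr7:116953251-116953550, plus strand), so the windows share no base and ST7-AS1 is in lower case throughout; the capitals in ST7 mark a GC box, the GGGCGG letters that SP1-family factors are known to bind, read on either strand. 
ST7-AS1: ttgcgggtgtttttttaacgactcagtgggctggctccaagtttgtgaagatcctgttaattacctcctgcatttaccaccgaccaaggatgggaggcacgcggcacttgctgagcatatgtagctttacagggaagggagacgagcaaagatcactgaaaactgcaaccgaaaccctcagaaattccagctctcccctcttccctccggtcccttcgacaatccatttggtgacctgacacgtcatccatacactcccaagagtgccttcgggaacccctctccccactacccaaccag
ST7: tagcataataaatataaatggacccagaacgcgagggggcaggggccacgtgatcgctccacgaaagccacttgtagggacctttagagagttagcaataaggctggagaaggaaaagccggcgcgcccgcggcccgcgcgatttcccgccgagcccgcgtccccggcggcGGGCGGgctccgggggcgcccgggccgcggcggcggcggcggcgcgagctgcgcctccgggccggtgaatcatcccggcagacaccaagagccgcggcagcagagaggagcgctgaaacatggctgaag
GGGCGG or its reverse CCGCCC was in 154 of the 369 antisense windows (41.7%), close to the 44.6% of all 27305 windows in the table. Among the 43 head-to-head windows, 34 (79.1%) held it, beside 58.5% of protein-coding windows. TATAAA or TTTATA was in 34 of 369 (9.21%) and in 0 of 43 head-to-head windows, beside 3264 of the 27305 windows in the table. CCAAT or ATTGG was in 35.0% of antisense windows and 35.7% of all. A median of 31 CG dinucleotides lay in a head-to-head window, 13 in the windows of the other antisense RNAs and 14 in all windows, while protein-coding windows had 22. A head-to-head window overlaps that of its partner only where the starts lie close, as in the 3 printed above. Others, such as that of ARHGAP5-AS1, start too far from the partner for the windows to meet. Where they overlap, these shares describe the shared stretch as much as the antisense gene. None of the shares was tested.

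Antisense RNAs were spread over the range of signal, with more of them in its lower part. Their median per array lay between 5.01 and 5.13, and 222 of 480 (46.25%) had a mean above the median of all rows, while 89 lay in the lowest quartile and 40 in the highest. Signal depends on each row's probes, so this order is one of brightness and not of transcript number. The brightest row belonged to URB1-AS1, the antisense RNA of a ribosome biogenesis gene, with 9.09, 9.29 and 8.83 in the TDNC1 arrays against 8.95, 8.99 and 9.05 in the controls. The groups overlapped, and the log2 change (TDNC1 minus control) was 0.07 with a standard error of 0.13, or 0.19 without TDNC1 replicate 3. The next brightest, ZNF667-AS1, PITPNA-AS1, DHRS4-AS1 and C10orf95-AS1, had changes of -0.12, -0.14, 0.07 and 0.08. Both DHRS4-AS1 and C10orf95-AS1 turn to the other sign, -0.09 and -0.03, when the rows of a symbol are averaged.

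No antisense RNA passed the test between TDNC1 and control cells. With limma's moderated test over all 53617 rows and Benjamini-Hochberg adjustment, 0 of 480 had an adjusted p under 0.05, beside 1 row (0.00187%) of the whole table, the uncharacterized locus LOC646736, and the smallest adjusted p of an antisense RNA was 0.631. An unadjusted p under 0.05 was given by 30 of 480 (6.25%), against 7.7% of all rows; 21 of them were higher in TDNC1 cells, where 3.74% of all rows were, and 9 lower, against 3.96%. The 3 TDNC1 arrays lay entirely above or below the 3 controls in 71 (14.8%), against 13.2% of all rows; 41 were above, where 6.48% of all rows were, and 30 below, against 6.7%. Both shares are near the background, so they are no result about antisense RNAs.

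Sizes were small. The median log2 change over the 480 was -0.01, the quartiles were -0.11 and 0.09, and the extremes were -0.65 in CIRBP-AS1 and 0.59 in MAPT-AS1. The median absolute change was 0.0971, against 0.113 over all rows. Only BASP1-AS1, CCDC18-AS1, CIRBP-AS1 and MAPT-AS1 exceeded 0.5 in size, which is 0.833% of the set beside 3.24% of all rows, and none exceeded 1; without TDNC1 replicate 3, 10 exceeded 0.5 and MAPT-AS1 stood at 0.28. For 478 of the 480 (99.6%) the 95% confidence interval of the change lay within 1 log2 unit of 0; the exceptions were CIRBP-AS1, whose interval reached -1.18, and MAPT-AS1, whose interval ran from -0.05 to 1.22. MAPT-AS1, antisense to the gene of the tau protein, was a dim row (mean 2.86 ± 0.53 in TDNC1 and 2.28 ± 0.26 in control arrays, SD, n = 3). A change of 1 log2 unit in row signal lay outside the interval of every other antisense RNA. Of the 480, 89 had a mean in the lowest quartile of rows. Low signal is compressed there, so a change in the transcript itself can be larger than the row shows.

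**Figure D1:**
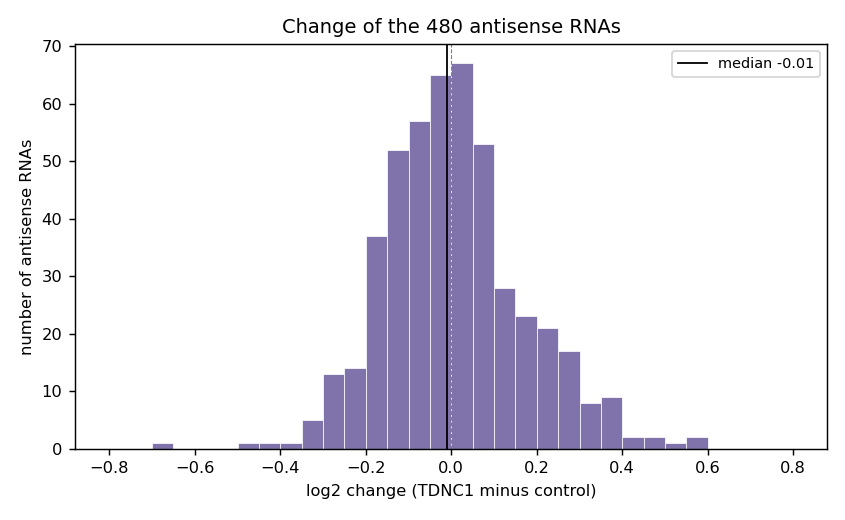
The histogram plots the log2 change (TDNC1 minus control mean) of the 480 antisense RNAs on the horizontal axis and their number on the vertical axis, with a solid line at the median of -0.01 and a dotted line at 0. The bars crowd around 0, and the lowest bar on the left holds CIRBP-AS1 at -0.65.

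Among those whose arrays did not overlap, the 8 with the smallest p on the higher side were spread over unrelated partners. BASP1-AS1 lies opposite BASP1, whose product is a membrane-attached signalling protein of neurons, and read 4.84, 4.90 and 4.71 in TDNC1 replicates 1, 2 and 3 and 4.34, 4.02 and 4.38 in the controls. Every TDNC1 array was above every control, by a log2 change of 0.57 with a standard error of 0.13 (limma adjusted p = 0.631). ZNF566-AS1, which shares its promoter window with the zinc finger gene ZNF566, read 7.57, 7.62 and 7.63 against 7.27, 7.36 and 7.30. Here too the groups were apart, and the change was 0.30 with a standard error of 0.08. ZNF566 itself read 5.81, 6.0 and 6.26 against 5.93, 6.03 and 5.97, a change of 0.05 with overlapping groups that turned to -0.07 without TDNC1 replicate 3.

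The remaining 6 were CCDC18-AS1 (log2 change 0.51), SCOC-AS1 (0.48), DLG1-AS1 (0.43), B3GALT5-AS1 (0.36), KANSL1-AS1 (0.33) and SLC60A1-AS1 (0.27). Their partners range from SCOC, a Golgi and autophagy protein, and DLG1, a polarity scaffold, to B3GALT5, a galactosyltransferase, KANSL1, a subunit of the NSL histone acetyltransferase complex, and the transporter SLC60A1. CCDC18-AS1 read 6.23, 6.14 and 5.68 in the TDNC1 arrays and 5.50, 5.57 and 5.45 in the controls, so replicate 3 was the array nearest to the controls. KANSL1-AS1 has a second row, which gave 0.29 beside the 0.33 of the first. SCOC, CCDC18 and SLC60A1 had changes of 0.16, 0.11 and 0.30, and KANSL1 of -0.02, all with overlapping groups; without TDNC1 replicate 3 CCDC18 was at 0.19 and SLC60A1 at 0.47.

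On the lower side, CIRBP-AS1 had the largest difference and is described below. CCNT2-AS1 faces CCNT2, a cyclin of the transcription elongation factor P-TEFb, and read 5.62, 5.49 and 5.65 in TDNC1 arrays and 5.87, 5.89 and 5.84 in controls. The groups did not overlap, with a log2 change of -0.28 and a standard error of 0.09. CCNT2, whose window overlaps by 285 bases, read 6.86, 6.89 and 6.95 against 6.94, 6.89 and 7.10, a change of -0.08 with overlapping groups. KIF9-AS1, opposite a kinesin gene, read 4.25, 4.20 and 4.48 against 4.70, 4.65 and 4.64, a change of -0.35 with all TDNC1 arrays below the controls. The others were BCL10-AS1 (-0.35), MCF2L-AS1 (-0.31), DPP10-AS1 (-0.31), NAPA-AS1 (-0.27) and ARHGEF3-AS1 (-0.27); BCL10 encodes an NF-kB adaptor, DPP10 a potassium channel accessory protein and NAPA the SNARE recycling factor alpha-SNAP. DPP10-AS1 and ARHGEF3-AS1 were dim, with means of 3.99 ± 0.15 and 3.55 ± 0.09 in the TDNC1 arrays (SD, n = 3).

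**Figure D2:**
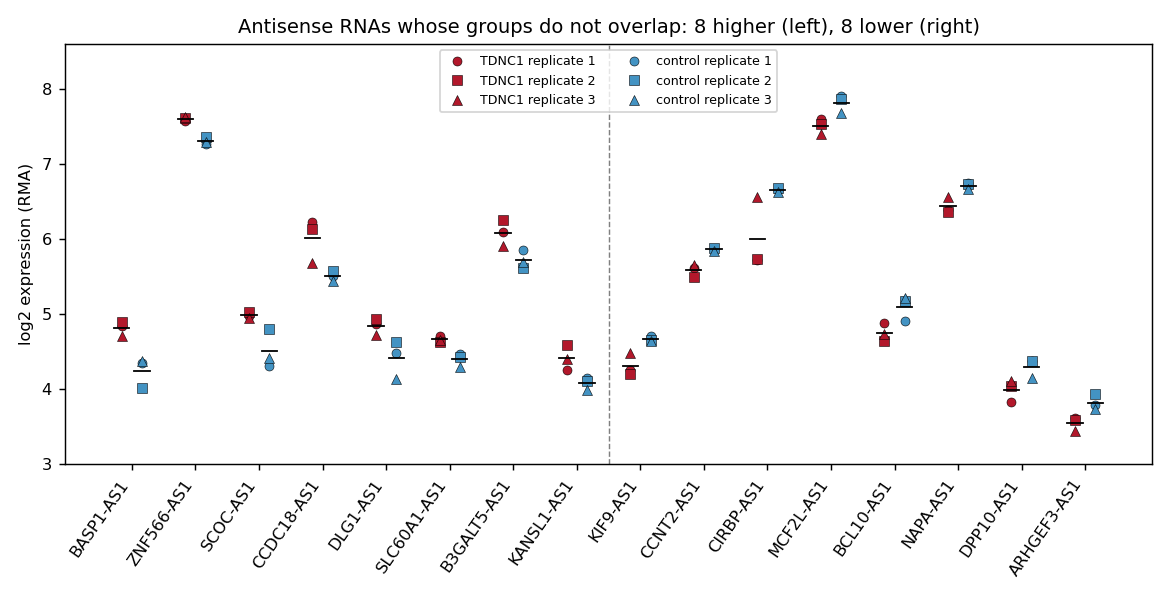
Log2 expression in each array is plotted for the 16 antisense RNAs named by the no-overlap rule, 8 higher in TDNC1 cells on the left and 8 lower on the right; red points are TDNC1 and blue points control arrays, the shape gives the replicate and the black bar the group mean. Points of the 2 groups are apart by the choice of the genes, and in CIRBP-AS1 and CCDC18-AS1 the triangle of TDNC1 replicate 3 lies nearer the controls than the other TDNC1 arrays.

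CIRBP-AS1 lies opposite CIRBP, the cold-inducible RNA-binding protein. Its row read 5.72, 5.73 and 6.56 in TDNC1 replicates 1, 2 and 3 and 6.66, 6.68 and 6.63 in the controls. TDNC1 replicates 1 and 2 were nearly equal and well below the controls, while replicate 3 was only just below them. The log2 change was -0.65 with a standard error of 0.22 (limma adjusted p = 0.631), and -0.93 with a standard error of 0.09 without TDNC1 replicate 3 (limma adjusted p = 0.0606).

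CIRBP has 2 rows. Array rows near each other in number tend to come from the same strand and chromosome, and a rule that takes the strand from the 10 nearest single-row genes, at 8 votes or more, was right for 9988 of 10005 rows of known strand (99.8%). By it, the dimmer CIRBP row lay on the strand of CIRBP-AS1, 3 row numbers away, so the array's label and its strand differ. That row read 7.10, 7.05 and 7.60 against 7.62, 7.67 and 7.73: again TDNC1 replicates 1 and 2 were low and replicate 3 nearly level with the controls, with a change of -0.42 (standard error 0.16) and of -0.60 without replicate 3. The brighter CIRBP row, on CIRBP's own strand, read 10.03, 10.04 and 10.18 against 9.92, 9.84 and 10.16, a change of 0.11 with overlapping groups. Averaging both rows gave CIRBP a change of -0.16, so the sign assigned to CIRBP depends on which row is read.

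The same check over the set found 373 of 377 antisense rows opposite to their partner's strand and 349 of 354 on the antisense gene's own strand. The 5 exceptions were PRR34-AS1, PSMB8-AS1, RPL26L1-AS1, WEE2-AS1 and ZEB2-AS1, each with several rows. On the partners' side, 8 of 249 rows with both strands known lay on the antisense strand. Over all named rows with both strands known, 394 of 10972 (3.59%) lay opposite to their own gene, and the difference was not tested. The 8 rows came from 7 genes (USP2, NAV2 with 2, PCDH9, CIRBP, EHBP1, KIAA1671 and PRICKLE2). Among these 8, only the CIRBP row had an unadjusted limma p under 0.05 (0.0302), beside 7.7% of all rows.

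The ST7 locus was the single pair of 315 in which both rows had an unadjusted limma p under 0.05 with all arrays. Without TDNC1 replicate 3 there were 10 such pairs, 6 of the same sign. With all arrays, 6.98% of the antisense RNAs with a partner row and 9.90% of the partners had such a p. Without TDNC1 replicate 3 these shares were 13.0% and 19.5%. Whether the pair counts exceed what the shares alone give was not tested. ST7 is a membrane protein gene named for tumour suppression, and ST7-AS1 starts within it. ST7-AS1 read 5.79, 6.11 and 5.74 in TDNC1 and 5.62, 5.64 and 5.41 in control arrays, a log2 change of 0.33 with a standard error of 0.13. ST7 read 7.21, 7.34 and 7.43 against 7.68, 7.62 and 7.62, a change of -0.31 with a standard error of 0.10. Neither gene's groups overlapped, with the antisense RNA above and the sense gene below the controls; the limma adjusted p were 0.646 and 0.631. ST7-AS2, the other antisense RNA named for the locus, had a change of -0.05 and was dim in both groups, at 2.36 ± 0.05 and 2.41 ± 0.09 (SD, n = 3).

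**Figure D3:**
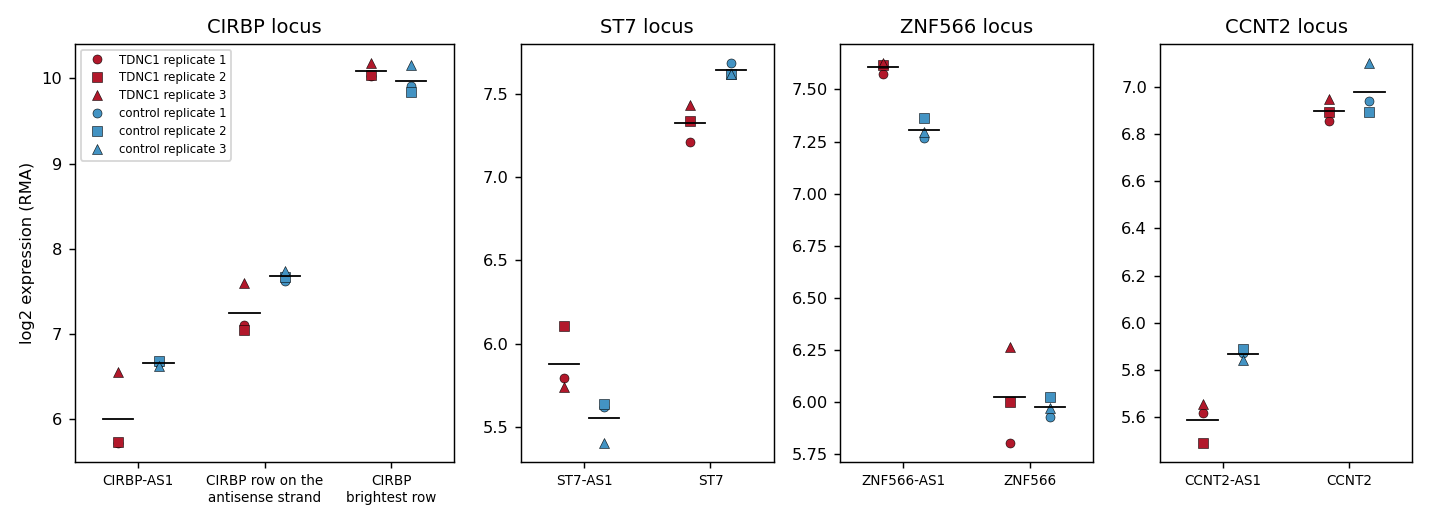
Log2 expression in each array is plotted for the CIRBP, ST7, ZNF566 and CCNT2 loci, with vertical axes that differ between panels; red is TDNC1, blue is control, the shape gives the replicate and the bar the group mean. Levels of different rows are not comparable; within a row, CIRBP-AS1 and the CIRBP row on the antisense strand are low in TDNC1 replicates 1 and 2, while ST7-AS1 and ST7 part in opposite directions.

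Over all pairs, the antisense and sense changes had no common direction. Both genes had the same sign in 153 of 315 pairs (48.6%, exact 95% binomial interval 42.9 to 54.2%, counting error only, and pairs at 1 locus share a partner), beside 7617 of 14856 pairs of neighbouring named genes (51.3%). Across pairs, Pearson's r was 0.01 and Spearman's rank correlation 0.01, a description over genes that share the same 6 arrays. Without TDNC1 replicate 3 the same-sign count was 154. Of the 22 antisense RNAs with an unadjusted p under 0.05 and a partner row, 9 had the partner's sign.

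The arrangement of the genes made a spread of shares on small counts. The same sign was found in 58 of 102 pairs with the antisense start inside the partner, in 21 of 35 overlapping the partner's start, in 12 of 28 head-to-head pairs, in 17 of 42 beyond the partner's end, in 7 of 11 farther upstream and in 38 of 97 that were not placed. Without TDNC1 replicate 3 these counts became 50, 19, 13, 23, 8 and 41, so the share inside the partner was then below that beyond its end. An unadjusted p under 0.05 was found in 5 of 43 head-to-head antisense RNAs, 5 of 65 overlapping the start, 8 of 142 inside the partner, 3 of 59 beyond its end, 0 of 16 farther upstream and 9 of 155 not placed, beside 7.7% of all rows. Without TDNC1 replicate 3 these became 9, 5, 12, 9, 4 and 16, beside 14.5% of all rows; the difference between arrangements was not tested. RBM26-AS1, the head-to-head RNA printed above, read 6.94, 6.68 and 6.5 against 6.48, 6.35 and 6.22, every TDNC1 array above the controls, with a change of 0.36, while RBM26, an RNA-binding protein gene, was at -0.09. A second, dimmer row of RBM26-AS1 gave -0.10.

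The 5 pairs on each side whose larger p of the 2 rows was smallest show what same-way and opposite pairs look like. SLC60A1 and ST7, given above, belong to them. SBF2-AS1 read 5.97, 6.01 and 5.65 against 5.53, 5.55 and 5.83, and SBF2, a myotubularin-family gene, 7.98, 7.89 and 7.53 against 7.41, 7.49 and 7.54. TDNC1 replicates 1 and 2 were above all controls in both rows and replicate 3 was not, with changes of 0.24 and 0.32. VAC14, a scaffold for phosphoinositide kinase, was at -0.41 and VAC14-AS1 at -0.20; VLDLR, a lipoprotein receptor, was at 0.33 and VLDLR-AS1 at 0.17; PRC1, a cytokinesis protein, was at 0.18 and PRC1-AS1 at 0.26. In the fit that left out TDNC1 replicate 3, VAC14 was at -0.63 and VAC14-AS1 at -0.11, while VLDLR was at 0.55, MRPL20 at -0.38 and MRPL20-AS1 at 0.39. Opposite signs were given by MRPL20-AS1 (0.26) with the mitochondrial ribosomal gene MRPL20 (-0.23), ENTPD3-AS1 (0.34) with the ectonucleotidase gene ENTPD3 (-0.22), PXN-AS1 (0.19) with the paxillin gene PXN (-0.19) and RPH3AL-AS1 (-0.18) with the Rab effector gene RPH3AL (0.16). These pairs were picked for the agreement or opposition of their signs, which is therefore no finding.

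**Figure D4:**
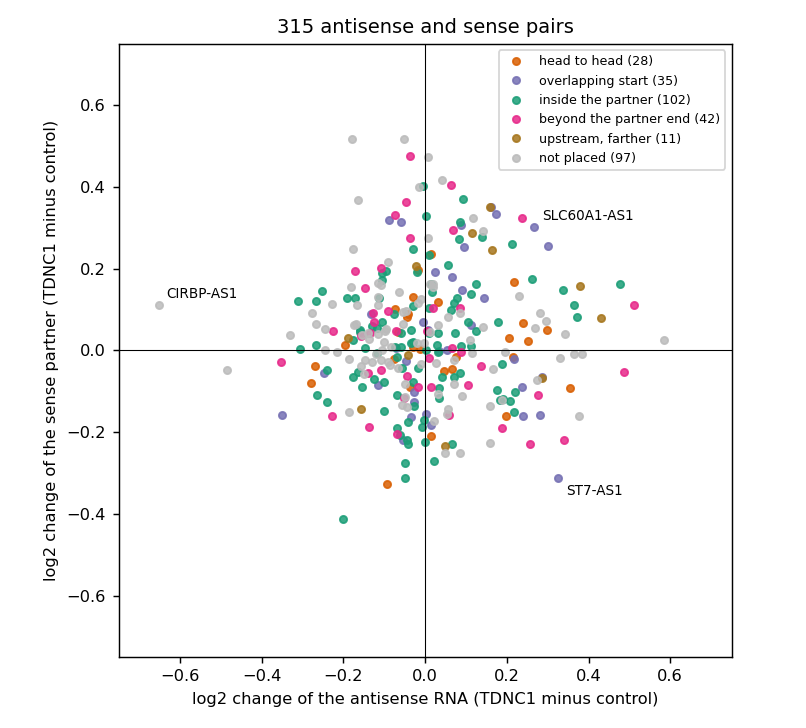
Each point is 1 of the 315 pairs, with the log2 change (TDNC1 minus control) of the antisense RNA on the horizontal axis and of the sense partner on the vertical axis, coloured by the arrangement of the genes, with the number of pairs in the legend. The cloud is centred near 0 with no slope (Pearson's r 0.01), CIRBP-AS1 lies farthest left and ST7-AS1 in the lower right.

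The sense partners themselves were as follows. No partner was called, and 30 of 303 (9.90%) had an unadjusted p under 0.05, beside 7.15% of the 14884 named genes; 26 were higher, where 4.59% of named genes were, and 4 lower, against 2.56%. Without TDNC1 replicate 3, 59 (19.5%) had one, beside 17.6% of named genes, with 42 higher, against 10.1%, and 17 lower, against 7.46%. With all arrays their median change was 0.02. IGFBP7, which encodes a secreted growth factor binding protein and was chosen after its values were seen, had a change of 0.52 with a standard error of 0.16 (limma adjusted p = 0.631). The difference between partners and other genes was not tested.

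Leaving out TDNC1 replicate 3 gave more low p-values but still no call among the antisense RNAs. In that limma fit 23 rows (0.0429%) of the table had an adjusted p under 0.05, and 0 of the 480. An unadjusted p under 0.05 was given by 55 (11.5%), against 14.5% of all rows, with 39 higher, against 6.87%, and 16 lower, against 7.62%. Of the 55, 21 also had one with all arrays, and in 23 the left-out array lay inside the range of the controls. The share higher (8.13%) was above that of all rows (6.87%) but below that of the 14884 named genes (10.1%). The share lower (3.33%) was below both (7.62% and 7.46%). These differences were not tested.

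Of the 5 RNAs with the smallest p on the higher side in this fit, DCST1-AS1 had the largest difference, with 6.64, 6.77 and 5.94 in TDNC1 arrays and 5.93, 5.88 and 6.07 in controls. Replicates 1 and 2 stood above all controls and replicate 3 among them, with a log2 change of 0.49 over all arrays and 0.74 without replicate 3. GABPB1-AS1, opposite a subunit of the GABP transcription factor, read 7.69, 7.52 and 7.05 against 6.99, 7.10 and 6.98, and FEZF1-AS1, opposite a forebrain transcription factor gene, 7.0, 7.0 and 6.49 against 6.5, 6.38 and 6.47. In FEZF1-AS1 and GABPB1-AS1 replicate 3 lay within the control range, and the changes without it were 0.55 and 0.58, in that order (0.38 and 0.39 with it). CCDC18-AS1 and BASP1-AS1, named above, stood at 0.68 and 0.62 without it. On the lower side, HOXA-AS3 read 6.51, 6.46 and 7.08 against 6.87, 7.19 and 7.19, PSMA3-AS1, opposite a proteasome subunit gene, 6.25, 6.02 and 6.58 against 6.53, 6.64 and 6.53, and ASB16-AS1 7.34, 7.40 and 8.03 against 7.67, 7.93 and 8.0. Without replicate 3 their changes were -0.60, -0.43 and -0.50, and with it -0.40, -0.28 and -0.28; in ASB16-AS1 replicate 3 was the highest of all 6 arrays. KIF9-AS1 was at -0.44 and CIRBP-AS1 at -0.93.

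**Figure D5:**
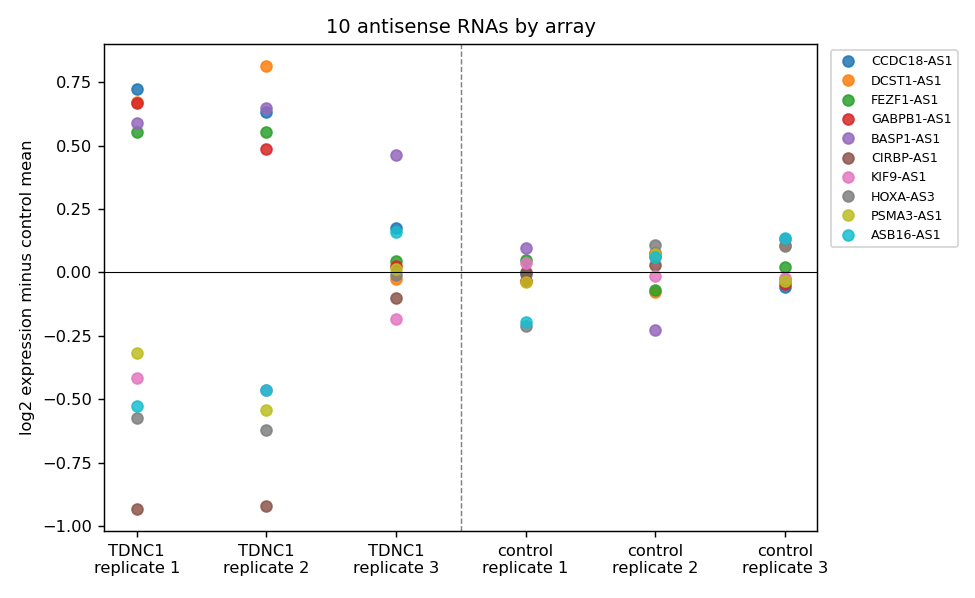
The log2 expression of 10 antisense RNAs minus their control mean is plotted for each of the 6 arrays, 1 colour per RNA; they were named because their p was smallest without TDNC1 replicate 3. TDNC1 replicates 1 and 2 lie away from 0 and replicate 3 lies nearer to 0 than either. In BASP1-AS1, CCDC18-AS1, KIF9-AS1 and CIRBP-AS1 replicate 3 still lies outside the control points, on the side of replicates 1 and 2. In ASB16-AS1 replicate 3 lies outside them on the other side.

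Grouped by the kind of partner, the low p-values were spread over most classes. An unadjusted p under 0.05 was found in 3 of 21 antisense RNAs of RNA-binding, splicing and translation genes, 3 of 21 of metabolic and mitochondrial genes, 2 of 23 of cytoskeleton and transport genes, 2 of 27 of transporter or channel genes, 2 of 27 of other transcription factor genes, 1 of 19 of zinc finger genes, 1 of 46 of signalling genes, 0 of 24 of adhesion and matrix genes and 0 of 10 of chromatin genes, with 16 of 259 for all others, beside 7.7% of all rows. When TDNC1 replicate 3 was left out, antisense RNAs of other transcription factor genes went to 8 of 27, all higher, those of RNA-binding, splicing and translation genes to 4, of transporter or channel genes to 4, of metabolic and mitochondrial genes to 2, of cytoskeleton and transport genes to 3, of adhesion and matrix genes to 1, of HOX clusters to 2 of 3, both lower, and of all others to 29, beside 14.5% of all rows. Class medians of the log2 change lay between -0.04 and 0.06 apart from the HOX clusters. Those had 3 members: HOXA-AS3 at -0.40, HOXD-AS2 at -0.22, with all TDNC1 arrays below the controls, and HOXB-AS3 at 0.04 (-0.01 without TDNC1 replicate 3). Classes were set from symbol patterns, which put MCF2L and ST7, not metabolic genes, with metabolism and the tau gene MAPT with signalling. The counts by class are therefore rough.

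Genes that process or use such RNAs gave no called member either. The lists held 25, 32, 12, 24 and 13 symbols, in the order given below, and only those with a named row were measured. Of 16 measured genes of the nuclear exosome, which degrades short-lived nuclear RNA, and its adaptors, 0 had an unadjusted p under 0.05, and their median change was 0.003. Of 16 genes of the Integrator complex, capping and early termination, which end transcription near starts, 0 had one, with a median of -0.07. Of 10 genes of Polycomb repressive complex 2 and its partners, which silence chromatin, 1 had one: RBBP7, a histone-binding subunit, at 0.27, with a median of 0.12; EZH2, the methyltransferase, was at 0.19. Of 4 measured enzymes that act on double-stranded RNA or RNA:DNA hybrids and 8 genes of nuclear RNA export, 0 had one. Beside these counts, 7.15% of all named genes had one. Leaving out TDNC1 replicate 3 moved them: 5 of 16 Integrator, capping and termination genes, all lower (median -0.11), 5 of 10 Polycomb genes, 4 of them higher (median 0.19), 4 of 8 export genes, 1 higher and 3 lower, 1 of 4 double-stranded RNA or hybrid enzymes, lower, and 0 of 16 exosome genes then had one, beside 17.6% of named genes, and none was called. SRRT, which links capped RNA to its processing, was at -0.37 in that fit (-0.23 with all arrays), RBBP7 at 0.36, AEBP2, a Polycomb accessory subunit, at 0.31 (0.22) and THOC1 and THOC2, subunits of the THO export complex, at -0.34 and 0.36 (-0.22 and 0.23).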

How the data were processed

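Total RNA from 6 samples was hybridized to Affymetrix Human Gene 2.0 ST arrays. The deposited values are log2 expression; the submitters' processing notes name RMA and Affymetrix Power Tools. Their versions, the probe annotation and the genome build were not given in the sources used here. Values over 53617 rows ran from 0.789 to 13.9. Of these, 16098 rows carried 1 symbol in the platform annotation, none carried several and the rest are unnamed here. RMA compresses low signal, so differences in dim rows are understated.

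All rows were fitted with limma 3.58.1 (R 4.3.3; lmFit and eBayes, 3 TDNC1 arrays against 3 controls), with Benjamini-Hochberg adjustment over all rows and 0.05 as the threshold; the step was tested on simulated data. The number of arrays limits the precision. The brightest row stood for a gene. Array values are printed to 2 decimals, except a few given to 1 decimal (6.0, 6.2, 6.5, 7.0 and 8.0). Promoter windows and starts came from RefSeq (GRCh38.p14). The antisense genes, gene lists and rules were chosen with earlier results of these data known.

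Named genes were the 8 non-overlapping antisense RNAs with the smallest p in each direction, the 5 in each direction without TDNC1 replicate 3, the 5 brightest, the 5 pairs in each direction, up to 2 per partner class and up to 4 per list, and their partners; not all are printed. Deviations of same-numbered arrays were hardly correlated (0.04, -0.001 and 0.05), which with so few arrays does not settle whether the replicate numbers pair them. Alternatives covered array weights, a trended prior, a replicate block, filters on dim rows, renormalization, the choice of row and leaving out arrays. Leaving out antisense RNAs whose row lay on the other strand was chosen after seeing the data.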

Additional observations from a re-analysis of the deposited data

How the results depend on the processing

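No antisense RNA had an adjusted limma p under 0.05 under any of the alternatives, and the median log2 change over them stayed between -0.02 and 0.01. The number with an unadjusted p under 0.05, 30 as reported, was 50 with array weights and 50 without the arrays numbered 3 of both groups; leaving out 1 array at a time gave 14 to 55, the lowest without TDNC1 replicate 1 and the highest without TDNC1 replicate 3. Rows called over the whole table ranged from 1 to 23 in those fits, with 23 without TDNC1 replicate 3 and 2 without control replicate 3. The share of same-sign pairs ranged from 46.7 to 53.0%. With the replicate number as a block, 30 antisense RNAs had an unadjusted limma p under 0.05, of which 20 were among those reported. Deviations of same-numbered arrays were hardly correlated, but 2 of the 3 TDNC1 arrays correlated best with the control of their own number. With 3 arrays a group, this does not settle whether the numbers pair the arrays. Of 1038 log2 changes of 62 named genes under the alternatives, 27 turned sign; the smallest adjusted p of a named gene was 0.0606, in CIRBP-AS1 without TDNC1 replicate 3. Signs turned with array weights for FEZF1 (0.0866) and KIF9 (0.00515), with each array centred on its median for FEZF1 (0.0139), KANSL1 (0.00368) and URB1 (0.00540), without the arrays numbered 3 for FEZF1 (0.176), KIF9 (0.0110), MCF2L (-0.0144) and ZNF566 (-0.0726), and with the mean of all rows for C10orf95-AS1 (-0.0269), DHRS4-AS1 (-0.0890) and CIRBP (-0.157). Leaving out 1 array turned the sign of FEZF1 (-0.103 to 0.127), KIF9 (-0.0876 to 0.00945), URB1 (-0.0462 to 0.0319), URB1-AS1 (-0.0371 to 0.194), MCF2L (-0.0191 to 0.0327), DHRS4 (-0.0545 to 0.176), ZNF566 (-0.0711 to 0.158), DCST1 (-0.0871 to 0.0144), ASB16 (-0.000991 to 0.193) and CCDC18 (-0.000699 to 0.192). The causes were not tested. With 3 arrays a group, the median distance from a change to the end of its 95% interval was 0.284. That interval is not adjusted for the number of rows, so 0.284 is not a limit of detection. BASP1-AS1, with a log2 change of 0.57, had a limma adjusted p of 0.631.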

Other observations

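Other noncoding RNA genes, classed by the ending or start of their symbols, also held no row called by limma. An unadjusted p under 0.05 was found in 18 of 458 long intergenic RNAs (3.93%, 5 higher and 13 lower in TDNC1 cells), 5 of 99 divergent transcripts (-DT, 4 higher and 1 lower), 2 of 36 host genes of small RNAs, 0 of 29 intronic and 0 of 6 overlapping transcripts, beside 7.7% of all rows. Without TDNC1 replicate 3 these counts were 39 long intergenic RNAs (16 higher and 23 lower), 12 divergent transcripts (all higher), 4 host genes, 2 intronic and 0 overlapping transcripts, beside 14.5% of all rows.

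Antisense genes named without a number numbered 9. Of these, 2 had an unadjusted limma p under 0.05, both lower in TDNC1 cells, beside 7.7% of all rows. Without TDNC1 replicate 3 it was 4, with 1 higher and 3 lower, beside 14.5% of all rows. These antisense genes and the others in this paragraph were singled out after their values were seen. BACE1-AS, opposite the beta-secretase gene BACE1, read 7.27, 7.48 and 8.01 in TDNC1 and 8.18, 8.16 and 8.16 in control arrays. All TDNC1 arrays were below the controls, with replicate 3 nearest, and the log2 change was -0.58 (standard error 0.18; limma adjusted p = 0.631), or -0.79 without replicate 3. HOXA11-AS, from the same HOX cluster as HOXA-AS3, read 7.14, 7.01 and 7.68 against 7.60, 7.71 and 7.79, with replicate 3 inside the control range and a change of -0.42. MIR181A1HG, the host gene of a microRNA, read 6.2, 5.77 and 6.07 against 6.81, 6.67 and 6.39, a change of -0.61 with all TDNC1 arrays below the controls. SNHG17, a host gene of small nucleolar RNAs, was at -0.41 and CNN3-DT at 0.53; in both the groups overlapped.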
